A study of Mus musculus with 8 samples.

Results

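The genes described here are 29 components of the cell death machinery, namely caspases, BCL2-family proteins, proteins that leave the mitochondria of dying cells, inhibitors of apoptosis and the adaptors of death receptors. They were taken by Entrez gene number from a table of 27179 genes, and all 29 were found in it. The rule uses no measured value, but the list was chosen with earlier results of these data known. By role, 19 promote death, 7 promote survival and 3 can do both. The data are poly(A) RNA-seq of embryonic mouse cerebral cortex, with 1 library from each of 8 embryos. The wild-type group holds 4 embryos labelled Taf8 +/+ and the Taf8-deleted group holds 4 labelled Taf8 -/lox, and no treatment is named. The sources used here give no strain, no embryonic day and no driver of Cre. The comparison asks how the RNA of these genes differs between cortex with and without Taf8. Taf8 codes for part of TFIID, the general transcription factor that binds at core promoters ahead of RNA polymerase II. Levels, rises and falls are relative to the other RNA counted in a library. A change in the total RNA per cell would not be seen.

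Apoptosis is carried out by caspases, proteases that are made as inactive precursors and switched on by cleavage. In the mitochondrial route, BH3-only proteins sense damage and neutralise the BCL2-like survival proteins or activate the effectors of the BCL2 family. The effectors open the outer mitochondrial membrane, and the cytochrome c let out assembles with Apaf1 and activates caspase 9, while Diablo and Htra2 are released alongside and block the inhibitors of apoptosis. In the receptor route, ligand-bound death receptors recruit Fadd and Tradd and activate caspase 8. Cell death of this kind removes surplus progenitors and neurons in the developing cortex. RNA levels do not show whether any caspase was cleaved.

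The libraries held 26312505 to 65523487 counts in genes, so 3 counts, taken as the floor of detection, equal 0.0458 to 0.114 CPM, counts scaled to library size. Taf8 RNA averaged 34.8 ± 2.75 CPM in the wild-type libraries and 0.643 ± 0.149 CPM in the deleted ones, and so fell by 5.75 on the log2 scale (SE 0.12, adjusted p = 1.45e-09). Markers of cortical identity (6 genes) summed to 2143 to 2347 CPM in wild-type and 1648 to 1922 CPM in Taf8-deleted libraries, with 1 gene higher and 4 lower. Neuronal markers summed to 6430 to 7685 against 5294 to 5879 CPM (8 of 10 genes lower, 0 higher). Progenitor markers summed to 2547 to 2862 against 3318 to 3660 CPM (4 of 9 higher, 3 lower). Vim (means of 809 and 1226 CPM) and Nes (515 and 979 CPM) weigh most in the rise of that sum. The 3 lower genes were Fabp7 (480 and 336 CPM), Slc1a3 (145 and 116 CPM) and Eomes (276 and 234 CPM). Of other cells, endothelial and pericyte markers summed to 224 to 233 against 270 to 339 CPM (12 of 12 higher), microglial markers to 49.6 to 55.9 against 55.2 to 72.7 CPM (6 of 12 higher, 1 lower), meningeal fibroblast markers to 27.0 to 46.6 against 23.6 to 144 CPM (6 of 12 higher, 0 lower) and red cell markers to 229 to 302 against 316 to 418 CPM (5 of 9 higher, 1 lower). None of these markers was at 0 in a library. In bulk tissue, fewer cells of a type and less RNA per cell cannot be told apart. The first parts of the animal numbers in the labels are never shared between the groups, and wild-type replicates 1 to 3 carry the same one, so a litter that it may mark cannot be told apart from the genotype. If those 3 embryos were littermates, the wild-type SD may be too small and with it the p-values.

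All 29 genes had enough counts to be tested, with 6 to 13440 counts per library. Of them, 9 rose, 10 fell and 10 did not pass the threshold of an adjusted p of 0.05. The share that passed was 65.5%, beside 59.2% of all 15649 genes tested, of which 29.5% were higher and 29.6% lower. The median log2 fold change was 0.05 over the 29 genes and 0.01 over all genes, and the median size of the change was 0.31 and 0.27. The lowest and highest values of the groups did not overlap for 18 genes, 9 in each direction, beside 53.6% of all genes, of which 26.6% had the deleted libraries above and 27% below. A test against a change of 1.2-fold was passed by 9 genes, 7 higher and 2 lower, beside 29.6% of all genes. These shares lie near those of all genes.

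The pro-death genes divided evenly: 7 of 19 rose, 7 fell and 5 missed the threshold (median log2 fold change 0.05). Among the pro-survival genes, 1 of 7 was higher, 3 were lower and 3 did not pass (median -0.17). The members with both roles comprised 1 of 3 higher and 2 not past the threshold. Of the pro-death genes, 3 of 4 caspases fell and 0 rose, and 3 of 5 genes for proteins released from mitochondria rose and 1 fell. Over all genes tested, 29.5% were called higher and 29.6% lower, and no test was made on these small sets.

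**Figure D1:**
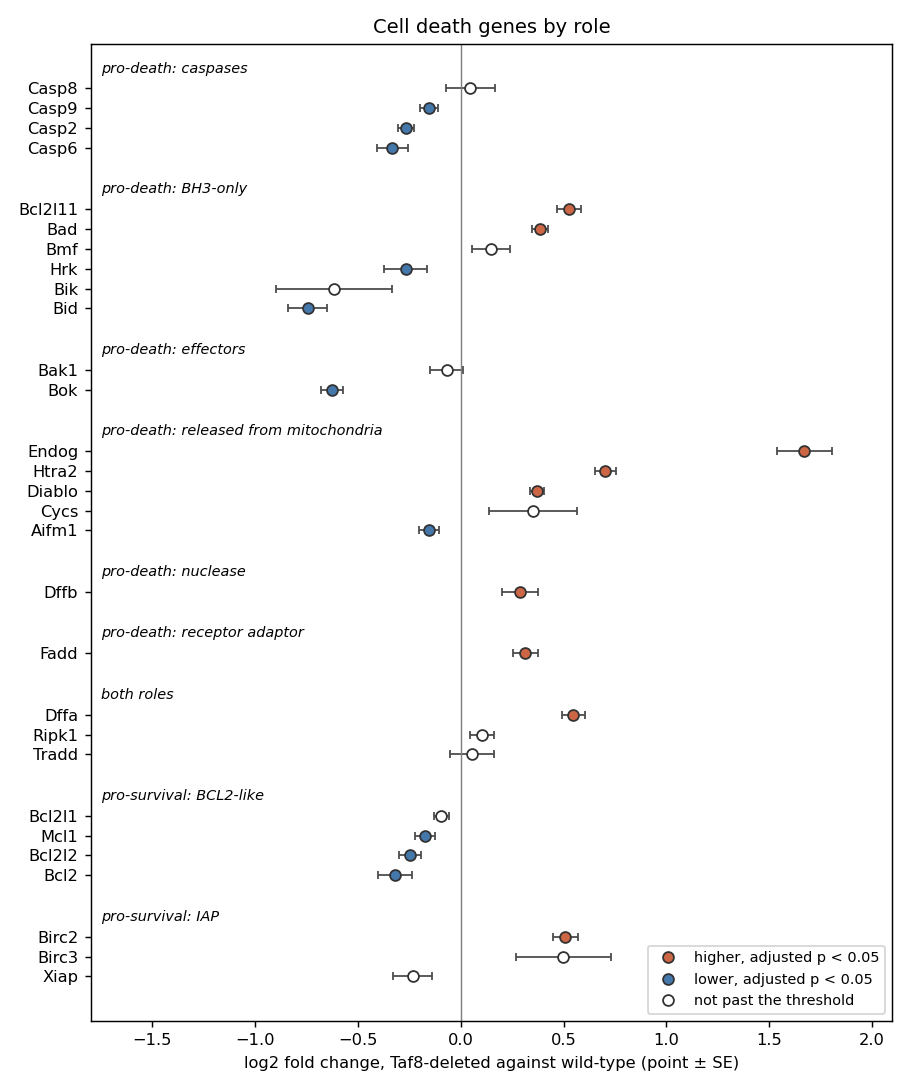
Log2 fold change of Taf8-deleted against wild-type cortex (x axis, point ± SE, 4 embryos per group) for the 29 genes, grouped by role; filled points passed an adjusted p of 0.05. The points run from -0.74 for Bid to 1.67 for Endog, and all 4 BCL2-like genes lie left of 0.

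Because TFIID binds core promoters, the bases before the start of transcription are shown for the 3 higher and 3 lower genes with the smallest adjusted p among the 14 genes whose 100 bases before the outermost RefSeq start hold no annotated exon. The sequences are from RefSeq (GRCm38.p6, the same sequence as mm10), and 26 of the 29 genes matched an entry. Capitals mark matches, on either strand, to the letters TATAAA (the TATA box), CCAAT (the CAAT box), GGGCGG (the GC box) and TACANNTCC, the core letters of the ZNF143 motif, of which the last was added after the Dffa sequence had been read.
Endog, higher, chr2:30171308-30171407, plus strand: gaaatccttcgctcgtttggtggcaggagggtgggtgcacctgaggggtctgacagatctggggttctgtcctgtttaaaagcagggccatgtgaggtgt
Dffa, higher, chr4:149104042-149104141, plus strand: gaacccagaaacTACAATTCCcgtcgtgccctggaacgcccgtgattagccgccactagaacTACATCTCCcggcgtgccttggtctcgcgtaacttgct
Bad, higher, chr19:6941761-6941860, plus strand: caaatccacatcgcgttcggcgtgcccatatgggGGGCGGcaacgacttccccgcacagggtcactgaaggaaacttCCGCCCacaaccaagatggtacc
Bok, lower, chr1:93685475-93685574, plus strand: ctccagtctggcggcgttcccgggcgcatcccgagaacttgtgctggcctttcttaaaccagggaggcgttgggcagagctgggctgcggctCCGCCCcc
Casp2, lower, chr6:42264802-42264901, plus strand: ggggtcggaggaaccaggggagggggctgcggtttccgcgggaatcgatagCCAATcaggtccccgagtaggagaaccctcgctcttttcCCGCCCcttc
Bcl2l2, lower, chr14:54883266-54883365, plus strand: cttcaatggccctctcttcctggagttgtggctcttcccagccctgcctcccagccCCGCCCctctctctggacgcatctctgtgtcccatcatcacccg

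The letters TATAAA were in the 100 bases of 0 of the 21 members that have such a stretch, and in 2.57% of 9043 tested genes. The CCAAT letters were in 6 of 21 members (Casp2, Bcl2l11, Bmf, Cycs, Diablo and Aifm1), beside 24.4% of genes, and were in 2 of 8 higher and 2 of 8 lower members. A GC box was in 11 of 21 members, beside 45.4% of genes, and in 4 of 8 higher and 6 of 8 lower members. The TACANNTCC letters were in 1 member, Dffa, with 2 copies, beside 3.56% of genes with at least 1 copy and 0.221% with at least 2. The motifs overlap none of each other in the printed stretches, and a match shows letters only, not binding.

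Caspases were lower or not past the threshold. Casp2 (Entrez gene 12366, chromosome 6, 42264902 to 42282508) encodes an initiator caspase activated in a complex with Pidd1 and Cradd. Its levels were 108, 105, 105 and 101 CPM in wild-type and 85.8, 83.3, 87.1 and 91.4 CPM in Taf8-deleted libraries, means of 105 ± 2.64 and 86.9 ± 3.41 CPM. Every deleted library lay below every wild-type library. The level was 1.204-fold lower (log2 fold change -0.27, SE 0.04, adjusted p = 0.000196). Casp6 (Entrez gene 12368, chromosome 3, 129901415 to 129914112), an executioner caspase that cleaves lamins, measured 20.3, 19.8, 17.6 and 16.7 CPM in wild-type and 15.4, 13.9, 14.3 and 15.4 CPM in Taf8-deleted libraries. It fell by 0.33 on the log2 scale (SE 0.08, adjusted p = 0.00323), and here too the groups did not overlap.

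Casp9, the initiator caspase of the mitochondrial route, fell from 43.6 ± 1.46 to 39.1 ± 1.44 CPM (log2 fold change -0.16, SE 0.04, adjusted p = 0.0108), with no overlap. With libraries scaled by their totals alone, the adjusted p of Casp9 was 0.0532. Casp8, the initiator of the receptor route, was at 4.40 ± 0.498 and 4.54 ± 0.522 CPM (log2 fold change 0.05, SE 0.12, adjusted p = 0.762). Per kilobase of the deposited gene length, the level of Casp2 RNA was the highest of these caspases, with 30.2 CPM per kb in wild-type and 25.1 in Taf8-deleted cortex, followed by Casp6 (12.8 and 10.1), Casp9 (11.2 and 10.05) and Casp8 (1.58 and 1.64). Summed per kilobase, the level of the 4 caspases was 55.8 ± 1.55 CPM per kb in wild-type and 46.9 ± 1.47 in Taf8-deleted cortex, a ratio of 0.841 given without a test.

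BH3-only genes moved in both directions: 2 of 6 rose, 2 fell and 2 missed the threshold. Bcl2l11 (Entrez gene 12125, chromosome 2, 128126038 to 128162547) encodes Bim, which binds all BCL2-like survival proteins and activates the effectors. It was at 22.4, 21.0, 20.4 and 20.5 CPM in wild-type and 31.5, 29.1, 32.2 and 28.5 CPM in Taf8-deleted libraries. The lowest deleted library stood above the highest wild-type library, and the rise was 1.44-fold (log2 fold change 0.53, SE 0.06, adjusted p = 2.1e-05). Bad (Entrez gene 12015, chromosome 19, 6941861 to 6951905), a BH3-only protein that growth factor signalling holds inactive by phosphorylation, measured 31.8, 30.7, 29.7 and 31.0 CPM in wild-type and 39.3, 40.8, 40.6 and 40.0 CPM in Taf8-deleted libraries. Its rise of 1.31-fold (log2 fold change 0.38, SE 0.04, adjusted p = 1.74e-05) was wide of the spread within either group.

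Bid (Entrez gene 12122, chromosome 6, 120893119 to 120917062), which caspase 8 cleaves to link the receptor route to mitochondria, fell 1.68-fold. Its levels were 15.6, 13.2, 14.8 and 13.7 CPM in wild-type and 7.81, 10.1, 7.97 and 8.32 CPM in Taf8-deleted libraries, so that the groups were apart, with deleted replicate 2 the nearest to wild-type. The log2 fold change was -0.74 (SE 0.09, adjusted p = 6.42e-05). Hrk, a BH3-only gene expressed in neurons, fell from 13.0 ± 1.47 to 10.8 ± 1.28 CPM (log2 fold change -0.27, SE 0.10, adjusted p = 0.045), with overlapping groups. The Hrk call was lost when wild-type replicate 2 or 3 or deleted replicate 1 or 2 was left out (adjusted p = 0.0635, 0.114, 0.106 and 0.103). It was also lost with library totals alone (adjusted p = 0.0724), upper-quartile scaling (0.0627) and no count filter (0.0513), and in 13 of the 23 alternatives in all. While Hrk fell, 8 of 10 neuronal markers were lower, and their part in its fall was not tested.

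Bmf, which responds to loss of cell anchorage, was at 22.1 ± 1.01 and 24.6 ± 3.69 CPM (adjusted p = 0.195). Bik stood near the floor, with 6 to 16 counts per library, and measured 0.348 ± 0.0797 and 0.217 ± 0.0357 CPM (log2 fold change -0.62, SE 0.28, adjusted p = 0.0991). Without wild-type replicate 3, the lowest of its group, Bik passed the test (log2 fold change -0.81, adjusted p = 0.0299). Per kilobase, Bad made up 52.3 ± 0.942% of the summed BH3-only level in wild-type and 60.5 ± 1.14% in Taf8-deleted cortex, Bcl2l11 10.3 ± 0.273% and 13.2 ± 0.962%, and Bid 18.7 ± 1.08% and 9.87 ± 0.947%. The sum itself was 40.5 ± 0.874 and 45.8 ± 1.53 CPM per kb. No test was made on these sums and shares.

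The effectors of membrane opening differed from each other. Bok (Entrez gene 51800, chromosome 1, 93685575 to 93695770), an effector that can form pores without activation by BH3-only proteins, fell 1.54-fold. It was at 40.9, 40.0, 38.5 and 40.6 CPM in wild-type and 23.5, 26.8, 26.4 and 26.9 CPM in Taf8-deleted libraries, with a wide gap between the groups. The log2 fold change was -0.63 (SE 0.05, adjusted p = 3.8e-06). Bak1, which BH3-only proteins activate, measured 25.6 ± 1.16 and 24.5 ± 2.99 CPM (log2 fold change -0.07, SE 0.08, adjusted p = 0.491). The summed level of Bok and Bak1 was 40.7 ± 1.16 CPM per kb in wild-type and 30.3 ± 2.49 in Taf8-deleted cortex.

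Genes for proteins released from mitochondria included the greatest change of the 29. Endog (Entrez gene 13804, chromosome 2, 30171408 to 30174069), a mitochondrial nuclease that can cut nuclear DNA after its release, rose 3.18-fold. Its levels were 4.35, 4.49, 3.38 and 5.49 CPM in wild-type and 14.6, 15.1, 14.02 and 12.3 CPM in Taf8-deleted libraries, from 131 to 653 counts each. The lowest deleted library stood far above the highest wild-type one. The log2 fold change was 1.67 (SE 0.13, adjusted p = 2.74e-06), and Endog was the only member past a 2-fold change, beside 1341 of all genes tested.

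Htra2 (Entrez gene 64704, chromosome 6, 83051266 to 83054571) encodes a serine protease of the intermembrane space that degrades inhibitors of apoptosis once released and serves protein quality control in healthy mitochondria. Its levels were 39.0, 39.1, 34.4 and 37.3 CPM in wild-type and 63.4, 60.9, 61.6 and 57.9 CPM in Taf8-deleted libraries. All deleted libraries stood above all wild-type libraries, and the rise was 1.63-fold (log2 fold change 0.70, SE 0.05, adjusted p = 1.4e-06). Diablo (Entrez gene 66593, chromosome 5, 123511330 to 123524164), the released antagonist of inhibitors of apoptosis also called Smac, measured 58.3, 61.3, 59.7 and 61.4 CPM in wild-type and 78.0, 77.9, 78.0 and 77.2 CPM in Taf8-deleted libraries. It rose 1.29-fold (log2 fold change 0.37, SE 0.03, adjusted p = 7.28e-06), and the deleted libraries differed little among themselves.

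Aifm1, an oxidoreductase that supports the respiratory chain and moves to the nucleus in dying cells, fell from 51.1 ± 2.84 to 45.9 ± 1.87 CPM (log2 fold change -0.15, SE 0.05, adjusted p = 0.0224) with overlapping groups. Its adjusted p was 0.0571 with upper-quartile scaling and 0.0925 with library totals alone. Cycs, which encodes somatic cytochrome c, was at 4.24 ± 1.42 and 5.46 ± 0.75 CPM (log2 fold change 0.35, SE 0.21, adjusted p = 0.182). It passed the test without wild-type replicate 3 (log2 fold change 0.58, adjusted p = 0.0169), and its level is uncertain because the gene has many near-identical pseudogene copies. Summed per kilobase, the 5 genes measured 82.7 ± 3.2 CPM per kb in wild-type and 113 ± 2.51 in Taf8-deleted cortex, a ratio of 1.36 without a test.

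Exons of several of these genes overlap those of another gene in the GENCODE annotation, and the sources used here do not say whether reads were counted by strand. Spout1, on the other strand, covers 35.7% of the exon bases of Endog and had a log2 fold change of -0.06 (adjusted p = 0.357). Aup1 covers 25.6% of those of Htra2 and rose by 0.32 (adjusted p = 0.000114), less than Htra2. Loxl3 covers a further 18.2% (log2 fold change 0.14, adjusted p = 0.361). For Diablo the partners are B3gnt4 on the other strand (21.5% of exon bases, log2 fold change 0.30, adjusted p = 0.085) and the predicted gene Gm49027 on the same strand (19.3%). Gpr137 covers 20.5% of the exon bases of Bad (log2 fold change 0.16, adjusted p = 0.0256), Ggnbp1 25.5% of those of Bak1 (log2 fold change 0.47, adjusted p = 0.00136) and Bcl2l13 17.7% of those of Bid (log2 fold change 0.24, against -0.74 for Bid). The percentages here and below are of all GENCODE exon bases of a gene, which can exceed the deposited length. Those bases number 6166 for Diablo against a deposited length of 1939, 2946 against 1725 for Htra2 and 2558 against 1452 for Bad. For Bid they number 3550 against 1891, and for Endog 1063 against 1032. The share of the counted bases that overlaps is therefore not known. The part of the partners in these values was not tested.

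**Figure D2:**
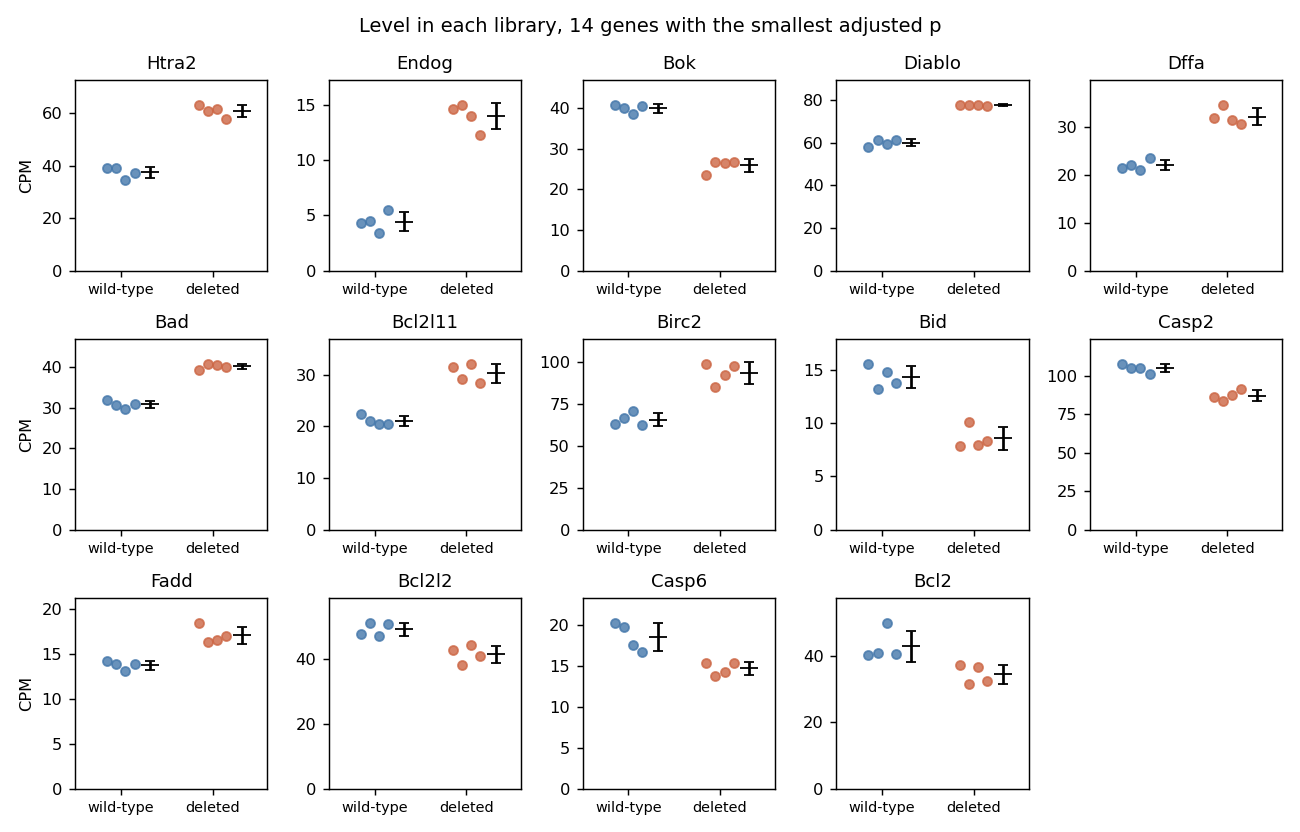
Level in each library (y axis, CPM from 0; points, 4 embryos per group; bars, mean ± SD) for the 14 genes with the smallest adjusted p. In each panel the wild-type and Taf8-deleted points do not overlap, with Endog at 3.38 to 5.49 CPM in wild-type and 12.3 to 15.1 CPM in Taf8-deleted libraries.

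The nuclease and its inhibitor were both higher. Dffb, the nuclease that cuts DNA between nucleosomes, rose from 10.2 ± 1.09 to 12.5 ± 0.91 CPM (log2 fold change 0.29, SE 0.09, adjusted p = 0.0174). This call was lost without wild-type replicate 2 (adjusted p = 0.0619) or deleted replicate 3 (adjusted p = 0.0612). Dffa (Entrez gene 13347, chromosome 4, 149104142 to 149120653) encodes the chaperone and inhibitor of that nuclease, which caspases cleave to set it free, and is counted among the genes with both roles. It was at 21.4, 22.0, 21.1 and 23.4 CPM in wild-type and 31.9, 34.6, 31.4 and 30.6 CPM in Taf8-deleted libraries. The groups lay apart, with a rise of 1.46-fold (log2 fold change 0.55, SE 0.06, adjusted p = 1.4e-05).

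Of the receptor adaptors, Fadd rose. Fadd (Entrez gene 14082, chromosome 7, 144578323 to 144582441) brings caspase 8 to death receptors and measured 14.2, 13.9, 13.0 and 13.8 CPM in wild-type and 18.4, 16.3, 16.5 and 16.9 CPM in Taf8-deleted libraries. Its rise of 1.24-fold (log2 fold change 0.31, SE 0.06, adjusted p = 0.00124) left no overlap, and deleted replicate 1 was the highest. Ripk1, a kinase that signals survival or death at the TNF receptor, was at 15.8 ± 0.695 and 17.0 ± 0.862 CPM (log2 fold change 0.10, SE 0.06, adjusted p = 0.164). Tradd, the adaptor that recruits it there, measured 6.94 ± 0.843 and 7.22 ± 0.689 CPM (log2 fold change 0.06, SE 0.11, adjusted p = 0.682).

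All 4 BCL2-like survival genes had deleted libraries wholly below the wild-type ones, and 3 of them passed the test. Of all genes tested, 27% lay wholly below in the same way and 29.6% were called lower. Bcl2l2 (Entrez gene 12050, chromosome 14, 54883366 to 54890858), which encodes Bcl-w, measured 47.8, 51.1, 47.0 and 50.7 CPM in wild-type and 42.7, 38.0, 44.2 and 40.8 CPM in Taf8-deleted libraries. It fell by 0.25 on the log2 scale (SE 0.05, adjusted p = 0.00258). The predicted gene Gm20521 shares 13.3% of its exon bases on the same strand. Bcl2 (Entrez gene 12043, chromosome 1, 106538176 to 106714290), the founding member of the family, was at 40.3, 41.1, 50.02 and 40.5 CPM in wild-type and 37.2, 31.6, 36.8 and 32.6 CPM in Taf8-deleted libraries. Wild-type replicate 3 stood above the other 7, and the log2 fold change was -0.32 (SE 0.08, adjusted p = 0.00684).

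Mcl1, a survival protein with a short half-life that cortical progenitors and neurons need, ranged from 189 to 210 CPM in wild-type and from 166 to 182 CPM in Taf8-deleted libraries (means 196 ± 9.79 and 174 ± 6.98). It fell by 0.17 on the log2 scale (SE 0.05, adjusted p = 0.00943). Bcl2l1, which encodes Bcl-xL, the survival protein of young neurons, ranged from 123 to 128 and from 111 to 121 CPM (means 125 ± 2.26 and 117 ± 4.1). Its log2 fold change of -0.09 (SE 0.04) had an adjusted p of 0.0506. Leaving out wild-type replicate 3 or deleted replicate 2 or 4 gave Bcl2l1 an adjusted p of 0.026, 0.0488 and 0.0357, and leaving out any other library gave 0.0626 to 0.105. DESeq2 gave 0.0319, upper-quartile scaling 0.163 and library totals alone 0.27, and over the alternative fits the log2 fold change of Bcl2l1 ran from -0.14 to -0.05. In the same comparison 8 of 10 neuronal markers fell and 12 of 12 endothelial and pericyte markers rose, while 6 of 12 microglial markers rose and 1 fell with sums that overlapped. The part of these cells in the BCL2-like levels was not tested, other than by entering mean endothelial and pericyte, microglial or meningeal marker levels as covariates. Neuronal markers were not entered in any fit.

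Per kilobase, Mcl1 and Bcl2l1 made up most of the BCL2-like RNA. Mcl1 held 43.6 ± 1.42% of the summed level in wild-type and 43.0 ± 0.675% in Taf8-deleted cortex, Bcl2l1 41.1 ± 1.28% and 42.8 ± 1.23%, Bcl2l2 11.0 ± 0.55% and 10.3 ± 0.601%, and Bcl2 4.3 ± 0.393% and 3.86 ± 0.336%. The mean shares moved by less than 2 percentage points while the sum went from 126, 128, 132 and 129 to 113, 113, 118 and 119 CPM per kb. The means were 129 ± 2.52 and 116 ± 3.35 CPM per kb, a ratio of 0.899. Set against this sum, the summed BH3-only level gave a ratio of 0.332, 0.312, 0.304 and 0.313 in wild-type and 0.391, 0.424, 0.391 and 0.377 in Taf8-deleted libraries. Every deleted library had the higher ratio (means 0.315 ± 0.0119 and 0.396 ± 0.0197), and no test was made because the genes were brought together with results of these data known. Bad alone went from 21.2 ± 0.612 to 27.7 ± 0.467 CPM per kb. That rise was greater than the rise of the whole BH3-only sum, from 40.5 to 45.8 CPM per kb. Without Bad, the summed level of the other 5 BH3-only genes was 19.3 ± 0.544 and 18.1 ± 1.12 CPM per kb, and its ratio to the BCL2-like sum was 0.15 ± 0.0052 and 0.156 ± 0.0124, with overlapping groups.

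**Figure D3:**
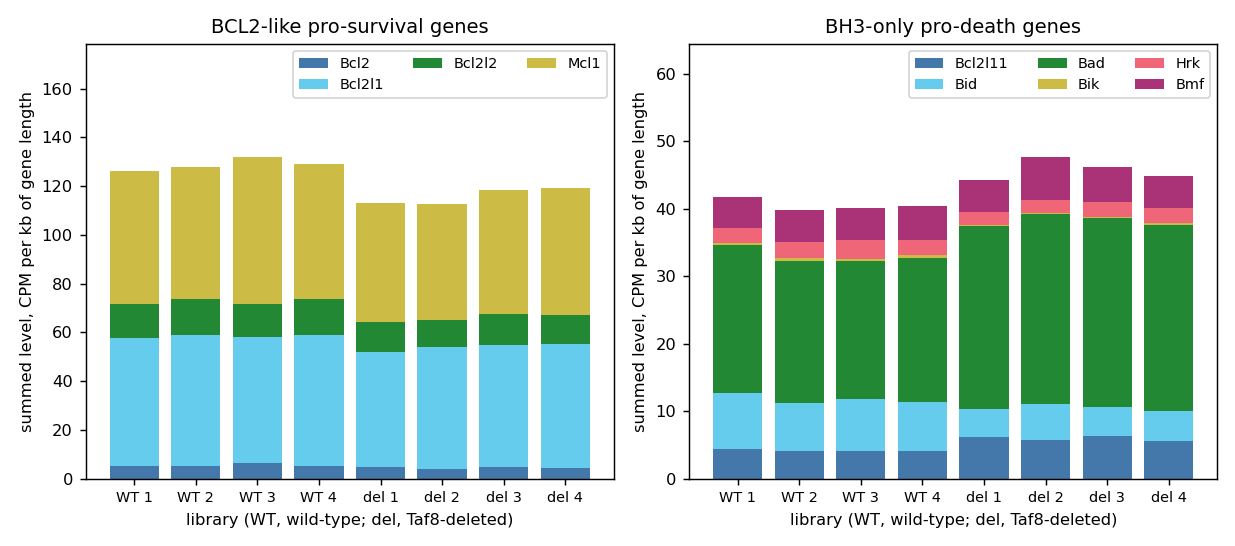
Summed level of the BCL2-like survival genes (left) and the 6 BH3-only members (right) in each library (y axis, CPM per kb of gene length, from 0; colours, genes). The left bars stand at 126 to 132 in wild-type and 113 to 119 in Taf8-deleted libraries, and the right bars at 39.8 to 41.8 and 44.3 to 47.7, with Bad the greatest part of each right bar.

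Inhibitors of apoptosis, survival proteins that bind caspases or tag signalling proteins with ubiquitin, did not move together. Birc2 (Entrez gene 11797, chromosome 9, 7818226 to 7837131), the ubiquitin ligase cIAP1 of TNF receptor signalling, measured 62.7, 66.8, 70.6 and 62.2 CPM in wild-type and 98.8, 84.9, 92.2 and 97.4 CPM in Taf8-deleted libraries. It rose 1.42-fold (log2 fold change 0.51, SE 0.06, adjusted p = 3.37e-05) with no overlap, and was the only pro-survival member to pass the test against a 1.2-fold change. Xiap, a direct inhibitor of caspases, ranged from 85.3 to 114 CPM in wild-type and from 73.2 to 90.8 CPM in Taf8-deleted libraries, with overlap. Its log2 fold change of -0.23 (SE 0.09) had an adjusted p of 0.0529, which became 0.0188, 0.0438, 0.0494 and 0.0295 without wild-type replicate 1 or 4 or deleted replicate 1 or 4, and 0.0817, 0.124, 0.119 and 0.106 without wild-type replicate 2 or 3 or deleted replicate 2 or 3. Without wild-type replicate 3, the highest, the log2 fold change of Xiap was -0.15, and over the alternative fits it ran from -0.30 to 0.13. Birc3, or cIAP2, was low, at 0.451 ± 0.0705 and 0.637 ± 0.158 CPM (log2 fold change 0.50, SE 0.23, adjusted p = 0.0864).

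Per kilobase, Birc2 held 58.2 ± 1.68% of the summed level of these 3 inhibitors in wild-type and 69.8 ± 0.844% in Taf8-deleted cortex, and Xiap 41.3 ± 1.72% and 29.7 ± 0.858%. The sum was 35.9 ± 3.12 and 42.6 ± 3.29 CPM per kb. Thus the BCL2-like sum was lower in every deleted library, whereas the sum of the inhibitors of apoptosis was 33.1 to 40.0 CPM per kb in wild-type and 38.4 to 45.4 in Taf8-deleted libraries and overlapped.

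A further 44 genes of the same pathways were listed for context. Of these, 31 had enough counts to be tested, of which 3 rose, 11 fell and 17 missed the threshold (median log2 fold change -0.09). The share of tested genes that passed was 45.2%, beside 59.2% of all genes. Apaf1, the scaffold of the apoptosome, was at 77.7 ± 4.26 and 81.2 ± 1.86 CPM (log2 fold change 0.06, adjusted p = 0.244). Bax, the effector that acts beside Bak1, fell from 83.8 ± 4.32 to 74.0 ± 2.96 CPM (log2 fold change -0.18, adjusted p = 0.0086). Both partners of Casp2 in its activating complex were lower: Pidd1 fell by 0.55 on the log2 scale (adjusted p = 0.000706) and Cradd by 0.49 (adjusted p = 0.000576).

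The BH3-only genes outside the 29 also went both ways. Bbc3, which encodes Puma, a target of p53, fell from 12.3 ± 0.616 to 8.56 ± 0.664 CPM (log2 fold change -0.53, adjusted p = 0.000174). Pmaip1, which encodes Noxa, another target of p53, rose from 2.41 ± 0.223 to 3.72 ± 0.462 CPM (log2 fold change 0.63, adjusted p = 0.00158). Among relatives and receptors, Bcl2l13, a mitochondrial protein of the BCL2 family, rose by 0.24 (adjusted p = 0.000276) and Ngfr, the p75 neurotrophin receptor, by 0.39 (adjusted p = 0.000202). Tnfrsf21, or death receptor 6, fell by 0.20 (adjusted p = 0.00115). Acin1, a nuclear RNA-binding protein that caspases cleave during chromatin condensation, fell from 449 ± 22.1 to 310 ± 6.57 CPM (log2 fold change -0.53, adjusted p = 2.51e-06). Of 10 receptor and ligand genes, 4 did not reach the count filter: Fas, Fasl, Tnf and Tnfsf10 had at most 10 counts in any library, and are named after their values had been seen.

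When the mean log2 CPM of endothelial and pericyte markers entered the fit as a covariate, 15 of the 19 calls among the 29 genes were lost. Over all genes, 854 were called higher and 1015 lower in that fit, beside 4624 and 4633 without the covariate. Bok (log2 fold change -0.65, adjusted p = 0.0238), Htra2 (0.58, adjusted p = 0.0257), Endog (1.27, adjusted p = 0.0343) and Birc2 (0.69, adjusted p = 0.0179) stayed past the threshold. The summed CPM of the endothelial and pericyte markers did not overlap between the groups, so covariate and genotype can hardly be told apart in this fit. Of the 15 genes whose calls were lost, 5 had a log2 fold change at least as large as without the covariate (Casp9, Aifm1, Fadd, Bcl2 and Bcl2l2), 10 had a smaller one, and in 4 of these (Casp2, Casp6, Dffb and Mcl1) it shrank by more than 1.5 times. Bid, for example, was at -0.72 (adjusted p = 0.117) and Bcl2 at -0.39 (adjusted p = 0.31), whereas Mcl1 was at -0.08 (adjusted p = 0.746). With microglial markers as the covariate, 2242 of all genes were called higher and 2414 lower. Among the 29 genes 8 calls were lost, of which 3 had a log2 fold change at least as large as before: Casp9 (-0.18, adjusted p = 0.139), Aifm1 (-0.26, adjusted p = 0.0527) and Bcl2 (-0.36, adjusted p = 0.115). It was smaller for Casp2 (-0.20, adjusted p = 0.06), Casp6 (-0.22, adjusted p = 0.267), Mcl1 (-0.13, adjusted p = 0.319), Dffb (0.17, adjusted p = 0.455) and, by little, Hrk (-0.27, adjusted p = 0.335). With meningeal markers, Hrk, Dffb and Mcl1 lost their calls, with log2 fold changes of -0.19, 0.24 and -0.13 (adjusted p = 0.242, 0.0891 and 0.0865). Over all genes, that fit called 3938 higher and 3947 lower. Endog, Htra2, Bok and Birc2 passed in each of the 23 alternatives, of which the single-sample files held the same counts as the matrix.

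**Figure D4:**
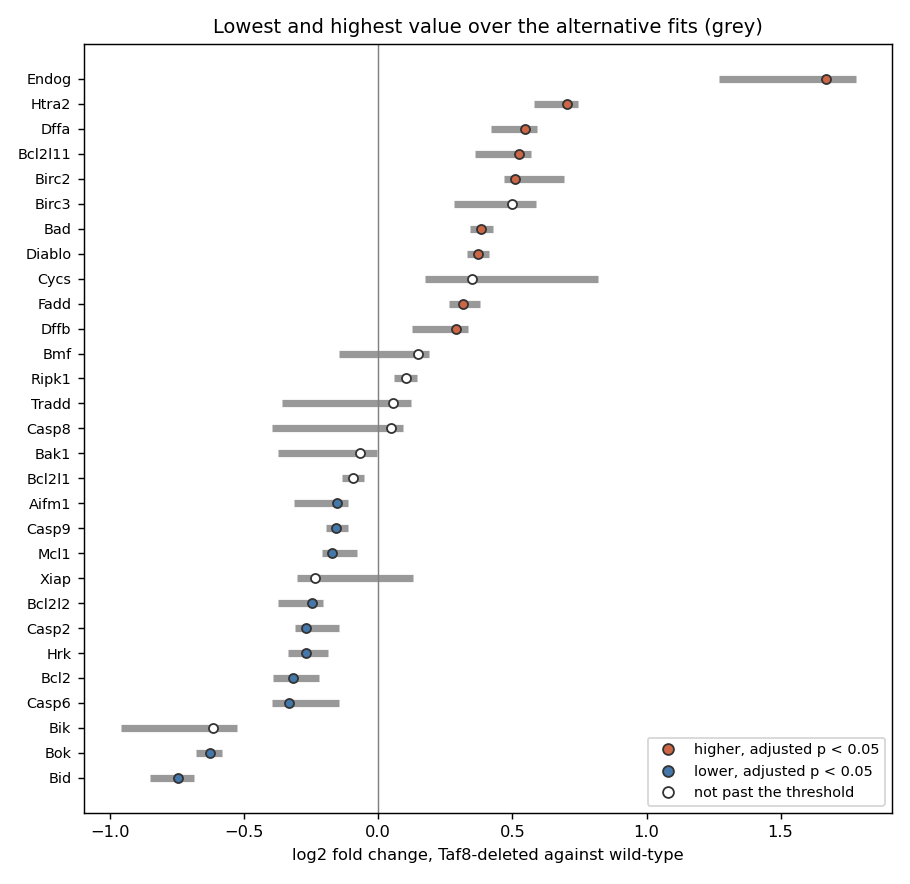
Log2 fold change of Taf8-deleted against wild-type cortex (x axis) for the 29 genes; points are the reported values, filled where they passed the threshold, and grey bars run from the lowest to the highest value over the alternative fits. The bar of Endog spans 1.27 to 1.78 and that of Bok -0.68 to -0.58, whereas the bars of Casp8, Tradd, Bmf and Xiap cross 0.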

How the data were processed

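The authors deposited unnormalized read counts for each Entrez gene, made with Subread 1.5.0 and featureCounts on mm10, per the submitters' processing notes. Libraries were stranded and poly(A)-selected and read in pairs, per the labels. The sources used here give neither the annotation nor the treatment of strand and of multi-mapping reads. The deposited gene lengths (bases, another unit) served for CPM per kb. The deposited matrix matched the single-sample files in every value.

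The groups were tested on these counts in R 4.3.3 by edgeR 4.0.16 (quasi-likelihood F-test after TMM scaling and filterByExpr, Benjamini-Hochberg over 15649 genes, threshold 0.05), 4 embryos per group. SE is the log2 fold change over the square root of F, and CPM uses TMM-scaled totals. The floor of 3 counts covers counting error only. Replicates differed beyond sampling noise (chi-square 3.72 to 29.4 per degree of freedom). Symbols came from RefSeq (25275 of 27179 genes) and exon overlaps from GENCODE vM21. The members and lists were chosen with earlier results of these data known. Values in every library are given for the 14 members with the smallest adjusted p, and for any with groups apart and a 2-fold change. Up to 5 other pathway genes per direction are named by adjusted p, with Bax and Apaf1; an item that the rule takes is not reported here. The fit was tried on simulated counts with far fewer changed genes than were called here, in equal numbers up and down. That does not check the scaling at the extent of change in these data. Alternatives were other scalings, filters and thresholds, DESeq2 1.42.0, limma 3.58.1 (voom), marker covariates, a replicate block and libraries left out. Leaving out wild-type replicate 3 with deleted replicate 4, the extremes of the neuronal and meningeal sums, was chosen after seeing the data.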

Additional observations from a re-analysis of the deposited data

Results flagged for a closer look

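Within the groups of 4 embryos, 3 of 60 sets of values for 30 genes held a library far from the other 3 by Dixon's test, close to the 1 in 20 that chance gives. Bok was at 23.5 CPM in Taf8-deleted replicate 1, below 26.4 to 26.9 CPM in the other deleted libraries and farther from wild-type. Bcl2 was at 50 CPM in wild-type replicate 3, above 40.3 to 41.1 CPM in the others, and that library also had the highest neuronal marker sum, 7685 CPM. Diablo was at 77.2 CPM in Taf8-deleted replicate 4, beside 77.9 to 78.0 CPM, a gap that is small against the difference between the groups.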

How the results depend on the processing

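Limits first: the 4 embryos per group may share litters, the marker sums move with the genotype, and genes near the floor (Bik, Birc3) or with gene copies (Cycs) are imprecise. Of the comparisons of a member with an alternative fit or threshold, 578 kept direction and call, 55 lost the call, 17 gained one and 13 changed sign. None of the 13 was for a called gene. The 578 include 29 from the single-sample files, whose identical counts could give no other result. The threshold of 0.01 and the test against 1.2-fold reuse the main fold changes, so no sign could change there. Replicate numbers did not pair the embryos (correlations of -0.46 to 0.01 between same-numbered libraries). The replicate block gave 4115 higher and 4170 lower genes, 7 higher and 6 lower pro-death members (Aifm1 lost, adjusted p = 0.0512) and a Taf8 log2 fold change of -5.76.

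Pro-survival members called lower numbered 5 with DESeq2 and with its size factors. With the endothelial covariate 854 genes were higher and 1015 lower, with 2 higher and 1 lower pro-death members, 0 lower pro-survival members, 0 higher members with both roles, and 0 higher and 2 lower other pathway genes. With the microglial covariate 2242 genes were higher and 2414 lower, with 2 lower pro-death and 1 lower pro-survival members, and 1 higher and 5 lower other pathway genes. Library totals alone gave 4 lower pro-death members and 6 higher other pathway genes. The test against 1.2-fold gave 2307 higher and 2328 lower genes, 2 lower pro-death, 0 lower pro-survival members and 6 lower other pathway genes. A threshold of 0.01 left 4 lower pro-death members. Without both wild-type replicate 3 and deleted replicate 4, 5 pro-survival members were lower and 5 other pathway genes higher. The stricter threshold and the smaller sample changed only the rule or the embryos used; for the rest the cause was not tested.

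With each embryo left out in turn, all genes called higher ran from 3999 to 4721 and lower from 4405 to 4729. Pro-death members ran from 6 to 8 higher and 6 to 7 lower, and pro-survival members from 3 to 5 lower, 5 without deleted replicate 4. Other pathway genes ran from 3 to 6 higher (6 without wild-type replicate 4, 5 without wild-type replicate 2 or 3 or deleted replicate 4) and 10 to 13 lower.

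Signs changed for uncalled genes. Casp8 was at -0.394, -0.0904 and -0.237 with endothelial, meningeal and microglial covariates, from -0.0337 without deleted replicate 3 to 0.0929 with 1 embryo left out (-0.0188 without wild-type replicate 3), and -0.0038 without wild-type replicate 3 and deleted replicate 4. Tradd was at -0.357, -0.0957 and -0.197 with those covariates, and from -0.009 without deleted replicate 2 to 0.123 with 1 embryo left out (-0.0008 without wild-type replicate 3). With the endothelial covariate Bmf was at -0.15 and Xiap at 0.13. Scalings moved the median log2 fold change of all genes to at most 0.05.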
